A study of Mus musculus with 9 samples.

Results

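The genes described here are those that make, degrade and read cyclic AMP: the adenylyl cyclases (Adcy), the cyclic nucleotide phosphodiesterases (Pde), the catalytic and regulatory subunits of protein kinase A (Prkac, Prkar), the Epac exchange factors (Rapgef3, Rapgef4), and the transcription factors of the CREB family (Creb1, Creb3, Creb5, Crem) with their CRTC coactivators. Members were chosen by gene symbol alone, with no measured value in the rule. Of the 48709 genes listed in the count files, 47 matched. These were 10 cyclases, 22 Pde genes, and 2 catalytic and 4 regulatory kinase A subunits. A further 2 were Epac genes, 4 CREB family genes and 3 CRTC genes. The rule takes in Pde genes by name, and not all of them encode enzymes that hydrolyse cyclic AMP.

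RNA was sequenced from NeuN-positive nuclei sorted from the frozen hippocampi of 6-month-old mice, with 3 libraries in each of 3 groups. WT mice received plain drinking water as vehicle. Homozygous Tg4-42 mice, on a C57BL/6J background, received either the same vehicle or 300 mg/l caffeine in the drinking water, in both cases for 4 months from 2 months of age. The Tg4-42 transgene expresses human Aβ4-42, fused to the murine TRH signal peptide, under the neuronal Thy1 promoter, so that its peptide is made in neurons without extra amyloid precursor protein. The labels give a treatment for the caffeine group only, and they speak of 6 mice in each group at the nuclei step where the methods speak of 3. There was no caffeine-treated WT group, so an effect of caffeine without the transgene cannot be told apart from one that needs it.

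Adenylyl cyclases turn ATP into cyclic AMP when G proteins or, for Adcy1 and Adcy8, calcium and calmodulin activate them, and phosphodiesterases hydrolyse it again. Cyclic AMP frees the catalytic subunits of kinase A from the regulatory ones and also activates Epac, and kinase A and calcium signals act together on CREB and the CRTC coactivators at genes with a cyclic AMP response element. In the hippocampus the pathway is known for its part in long-lasting synaptic potentiation and memory. Caffeine blocks adenosine receptors, which couple to the cyclases through inhibitory and stimulatory G proteins, and at high concentrations it also inhibits phosphodiesterases.

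Library totals ranged from 9342945 to 16376922 counts, at which 3 counts correspond to between 0.190 and 0.325 CPM (counts scaled to a common library size with the TMM method), a floor for counting error only. Of the 48709 genes, 17361 passed a filter on low counts and were tested with edgeR's quasi-likelihood test over all 9 libraries. Among the members, 44 passed, and Adcy4, Pde6a and Pde6c, with 12, 35 and 51 counts summed over all libraries, did not. In a bulk sample fewer nuclei of a type and less RNA per nucleus cannot be told apart. The marker lists of neurons were well covered, with summed levels of 5 pan-neuronal genes between 5129 and 7745 CPM. Against this stood 263 to 524 CPM for 7 oligodendrocyte genes, 137 to 268 CPM for 7 astrocyte genes and 42.7 to 77.5 CPM for 7 microglia genes. The sums were 17.3 to 148 CPM for 5 choroid plexus genes and 1.18 to 2.91 CPM for 5 endothelial genes.

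Per exon length, the regulatory subunits of kinase A stood first among the members. Levels are given here as RPKM, a count scaled to library size and to the length of the exons, which allows genes to be compared. Prkar1a, a type I regulatory subunit, had a mean of 214 RPKM over the 9 libraries, with a range of 173 to 257 RPKM, and lay at percentile 99.6 of all genes tested. Prkar1b, the type I subunit that is largely neuronal, had a mean level of 94.9 RPKM with a range of 64.1 to 125 RPKM. The type II subunits were far lower, with mean levels of 8.33 RPKM for Prkar2b and 4.84 RPKM for Prkar2a. The summed level of both type I genes was 25.6 ± 3.08 times that of both type II genes in WT (SD, n = 3), 24.4 ± 0.388 times in vehicle-treated and 20.6 ± 2.02 times in caffeine-treated Tg4-42 mice. Among the catalytic subunits, Prkacb had a mean level of 34.4 RPKM and Prkaca one of 15.9 RPKM, and Prkacb was the higher of the pair in each of the 9 libraries.

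The order of the other subfamilies was led by Creb3, a CREB relative that is anchored in the endoplasmic reticulum membrane, with a mean of 59.1 RPKM, by the calcium-insensitive cyclase Adcy2 with 42.0 RPKM and by the Epac gene Rapgef4 with 40.5 RPKM. The highest phosphodiesterases were the calcium- and calmodulin-dependent Pde1a, with a mean level of 31.7 RPKM, the cyclic AMP-specific Pde4a with 22.7 RPKM and Pde1b with 19.2 RPKM. Crtc2 was the highest CRTC gene with 12.6 RPKM. Creb1 itself, the CREB factor best known from neurons, had a mean level of 4.32 RPKM, with a range of 3.70 to 4.97 RPKM. At the lower end, the means of Pde5a, Adcy10, Pde8a, Pde1c, Pde6b, Pde4c, Pde3a, Pde6c, Creb5, Pde6a and Adcy4 all lay under 1 RPKM, with 0.602 RPKM for Pde5a as the highest of them. Adcy4 had 0 counts in 5 of the 9 libraries, including the 3 of caffeine-treated mice. Of the 46 pairs of neighbours in this order, 44 had overlapping ranges over the 9 libraries, the exceptions being Prkar1a above Prkar1b and Adcy7 above Pde5a, so most neighbouring ranks did not differ beyond the spread. The 10 highest members were the same 10 when the longest transcript was taken as the length and when TPM was used.

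**Figure D1:**
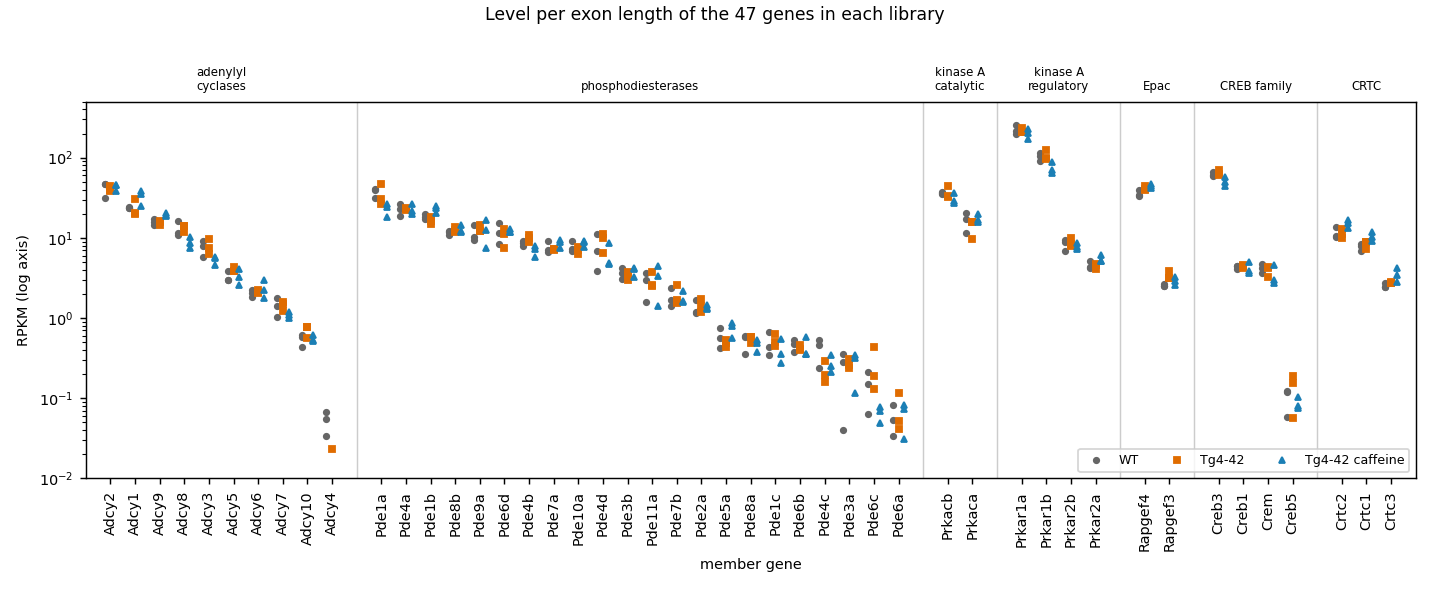
Level per exon length of each of the 47 members in each of the 9 libraries, in RPKM on a log axis, by subfamily and in descending order of the mean. Each symbol is 1 library, and the values of 0 for Adcy4 cannot be drawn on this axis. Prkar1a and Prkar1b stand above all other members, and Adcy4, Pde6a, Pde6c and Creb5 lie at the lower end.

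A few levels are uncertain because exons overlap those of other genes. In the GENCODE M21 annotation, 15 members share exonic bases with another gene, and 3 share over 10% of them. Pde2a shares 64.3% of its exonic bases with Gm45837, a gene annotated on the same strand that had at most 0.0647 CPM in any library, and reads that fall on bases of both genes cannot be assigned to either. The mean level of 1.38 RPKM for Pde2a is therefore uncertain. Adcy3 shares 22.1% of its exonic bases with Cenpo and Creb3 20.8% with Gba2 and Tln1, which lie on the opposite strand. The library kit does not mark strand, so reads on these shared bases cannot be assigned by strand. Cenpo had 5.88 to 7.53 CPM, Tln1 19.9 to 28.4 CPM and Gba2 188 to 263 CPM, beside 105 to 168 CPM for Creb3. The levels of Adcy3 and Creb3 are therefore uncertain as well. These partner genes were named after their values were seen.

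Since kinase A acts on genes through CREB, the starts of the members were searched for the letters that CREB binds, the cyclic AMP response element TGACGTCA and its core TGACG, read on both strands as TGACG or CGTCA (every full element holds a core as well). RefSeq windows of 300 bases, 250 before and 50 after a start, were available for 37 members, with 75 windows on GRCm38.p6 (mm10). Adcy6, Adcy8, Crem, Crtc2, Pde3a, Pde3b, Pde6a, Pde6c, Pde7a and Pde9a were not searched. The full element was found in 3 of the 75 windows, 4.0%, beside 1.79% of all 32851 windows, and these belong to Prkar1a and Creb5. A pair of overlapping Prkar1a windows hold the same element, so that 2 distinct elements were found. The core was found in 17 windows of 15 members, 22.7% of the windows, beside 20.8% of all windows. By gene these are 15 of 37 members, beside 23.0% of all genes with a window, but members had 2.03 windows each against 1.22 over all genes, so the shares by gene are not on one footing. The sequences below show cores before the start of kinase A subunits and of the Pde1a and Adcy9 genes described further down. Among these subunits, Prkar1a and Prkar1b lead the levels. Each sequence is given on the coding strand of the gene from 5′ to 3′ with the core in capitals.
Prkar1a, chr11:109649188-109649240, plus strand, 151 bases before the start: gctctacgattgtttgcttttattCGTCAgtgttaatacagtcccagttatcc
Prkar1b, chr5:139150022-139150074, minus strand, 49 bases before the start: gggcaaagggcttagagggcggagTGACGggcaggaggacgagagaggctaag
Prkaca, chr8:83972834-83972886, plus strand, 120 bases before the start: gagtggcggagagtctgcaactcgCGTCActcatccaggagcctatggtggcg
Prkacb, chr3:146813020-146813072, minus strand, 102 bases before the start: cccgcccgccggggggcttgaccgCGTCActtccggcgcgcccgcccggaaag
Pde1a, chr2:80039040-80039092, minus strand, 166 bases before an internal start: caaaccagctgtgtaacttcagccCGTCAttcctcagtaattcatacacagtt
Adcy9, chr16:4420499-4420546, minus strand, 24 bases before the start: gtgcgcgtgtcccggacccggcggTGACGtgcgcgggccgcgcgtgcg
Cores were thus present before both catalytic and both type I regulatory subunits of kinase A. The type II subunit Prkar2a held a core that begins 4 bases before its start and runs across it, which is not shown. The other type II subunit, Prkar2b, was searched and held no core. By window, the members' share of 22.7% lay near the 20.8% of all windows, and no separate share was computed for the subunits. Of the 14 members with a window and an unadjusted p under 0.05 in at least 1 comparison below, 5 held the core. This stands beside 15 of all 37 members with a window. Between caffeine and vehicle their log2 fold changes were -0.60 for Pde1a, -0.49 for Pde4b, -0.51 for Prkar1b, -0.23 for Rapgef3 and 0.32 for Adcy9. A match describes the letters only, and binding was not measured.

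Between vehicle-treated Tg4-42 and WT mice, no member passed the test. The question of this comparison is what the transgene alone does. By edgeR's quasi-likelihood test 0 of the 44 members had an adjusted p under 0.05, against 0.0979% of all 17361 genes, and 2 had an unadjusted p under 0.05, which is 4.55% of the members and 2.74% of all genes. DESeq2 and limma-voom called 0 members as well. The log2 fold changes of the members ran from -0.93 to 0.42, with a median of 0.03 beside a median of 0.0018 over all genes tested, and 27 were above 0.

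The members with an unadjusted p under 0.05 were an Epac gene and a phosphodiesterase, at mean levels of 2.95 and 0.298 RPKM. Rapgef3, the Epac gene with the wider tissue distribution, had 15.7, 15.9 and 16.7 CPM in WT mice, 20.2, 24.3 and 20.2 CPM in vehicle-treated Tg4-42 mice and 20.6, 18.4 and 16.4 CPM in caffeine-treated Tg4-42 mice. All Tg4-42 vehicle libraries lay above all WT libraries. Rapgef3 was the single member for which these groups did not overlap, 2.27% of the members tested, below the 6.73% of all genes. Its log2 fold change was 0.42 (SE 0.16, adjusted p = 1.00 by edgeR's quasi-likelihood test), and the exact permutation test gave p = 0.1, the smallest that 3 against 3 libraries allow. Pde4c, a cyclic AMP-specific phosphodiesterase, had 2.98, 1.33 and 2.59 CPM in WT and 1.08, 0.898 and 1.61 CPM in vehicle-treated Tg4-42 mice, and 1.40, 1.18 and 1.92 CPM with caffeine. The groups overlapped, and Pde4c differed from WT by a log2 fold change of -0.93 (SE 0.40, adjusted p = 1.00 by edgeR's quasi-likelihood test). The brain-enriched Epac gene Rapgef4, whose level was 13.3 to 15.1 times that of Rapgef3 in WT libraries per exon length, had 226, 224 and 266 CPM in WT, 275, 294 and 261 CPM in vehicle-treated and 278, 316 and 296 CPM in caffeine-treated Tg4-42 mice. The lowest vehicle-treated Tg4-42 library lay just under the highest WT library, and the log2 fold change was 0.21 (SE 0.12).

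Between caffeine-treated and vehicle-treated Tg4-42 mice, more members lay apart, though none passed the test after adjustment. This comparison asks what long-term caffeine does in the transgenic mice. By edgeR's quasi-likelihood test 0 of 44 members had an adjusted p under 0.05, against 0.881% of all genes, and the lowest adjusted p was 0.0802, for Pde1b. DESeq2 and limma-voom each called 4 members, which were the same ones, Pde1b, Pde4b, Adcy8 and Prkar1b. At an unadjusted p under 0.05 there were 12 members, 27.3% of those tested, beside 17.0% of all genes, with 6 members higher and 6 lower in caffeine-treated mice, beside 7.15% and 9.82% of all genes in these directions. The groups did not overlap for 15 members, 34.1%, beside 23.0% of all genes, with 8 higher and 7 lower, beside 10.4% and 12.6% of all genes. The median log2 fold change of the members was -0.07 beside -0.01 over all genes, the median of its absolute size was 0.28 beside 0.21, and no member passed 1 in either direction. This comparison and the one between Tg4-42 and WT share the vehicle-treated Tg4-42 libraries.

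**Figure D2:**
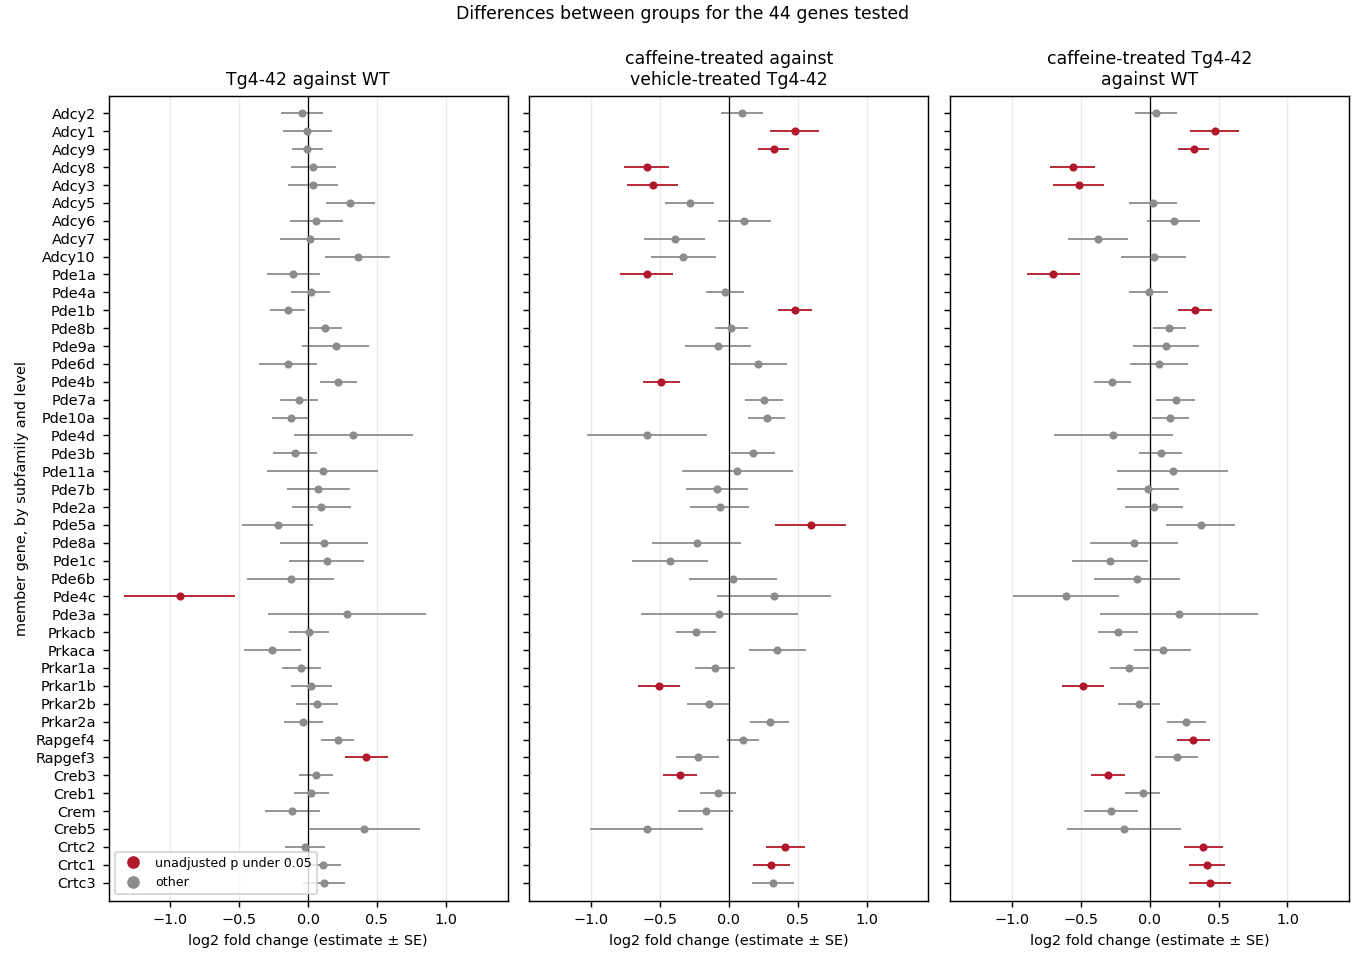
Log2 fold change of the 44 members tested in the 3 comparisons, as estimated over all 9 libraries, with bars of 1 SE. Red points have an unadjusted p under 0.05 in edgeR's quasi-likelihood test (2, 12 and 12 members from left to right), and no member had an adjusted p under 0.05.

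The calcium-stimulated cyclases differed in direction. Adcy8 (chr15:64697084-64922296) had 88.6, 93.4 and 134 CPM in WT, 114, 96.0 and 115 CPM in vehicle-treated and 83.7, 70.0 and 60.5 CPM in caffeine-treated Tg4-42 mice. All 3 caffeine libraries lay below all 6 others. Relative to vehicle, caffeine gave a log2 fold change of -0.60 (SE 0.16, adjusted p = 0.0915 by edgeR's quasi-likelihood test). Adcy1 (chr11:7063489-7178506), which like Adcy8 is stimulated by calcium and calmodulin, had 296, 300.3 and 295 CPM in WT, 384, 258 and 247 CPM in vehicle-treated and 486, 312 and 437 CPM in caffeine-treated Tg4-42 mice. Its caffeine libraries lay above all WT libraries but overlapped the vehicle-treated Tg4-42 libraries, 1 of which stood well above the other two. Adcy1 had a log2 fold change of 0.48 (SE 0.18, adjusted p = 0.191 by edgeR's quasi-likelihood test).

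Adcy9, the cyclase least sensitive to forskolin, had 74.3, 89.0 and 81.3 CPM in WT, 84.4, 83.2 and 76.1 CPM in vehicle-treated and 98.5, 99.4 and 107 CPM in caffeine-treated Tg4-42 mice. The caffeine libraries were the 3 highest of the 9, with a log2 fold change of 0.32 against vehicle (SE 0.11, adjusted p = 0.168 by edgeR's quasi-likelihood test). Adcy3, the cyclase of olfactory neurons and of neuronal primary cilia, had 36.4, 48.8 and 57.7 CPM in WT, 38.9, 61.1 and 46.4 CPM in vehicle-treated and 29.0, 35.7 and 35.3 CPM in caffeine-treated Tg4-42 mice. All caffeine libraries lay below the others, by the narrow margin of 35.7 against 36.4 CPM to the lowest WT library, and the exon overlap with Cenpo applies. Its log2 fold change from vehicle was -0.55 (SE 0.19, adjusted p = 0.147 by edgeR's quasi-likelihood test), and -0.35 without vehicle replicate 2. The highest cyclase, Adcy2, had 132, 199.6 and 199 CPM in WT, 160.3, 187 and 166 CPM in vehicle-treated and 162, 194 and 192 CPM in caffeine-treated mice. These ranges overlapped throughout, and its log2 fold change was 0.09 (SE 0.15). The summed level of the 10 cyclases was 109.2 ± 13.7 RPKM in WT, 109.3 ± 5.07 RPKM in vehicle-treated and 117 ± 3.98 RPKM in caffeine-treated Tg4-42 mice (SD, n = 3). The libraries had 113.03, 111 and 103 RPKM with vehicle and 117.05, 113.3 and 121 RPKM with caffeine, which did not overlap but lay 113.03 against 113.3 RPKM at the closest, and the WT libraries, at 93.6, 115 and 120 RPKM, overlapped both groups. Within that sum, Adcy1 made up 22.0 ± 2.88% in WT, 21.5 ± 4.82% with vehicle and 28.0 ± 5.61% with caffeine, and Adcy8 made up 11.8 ± 1.87%, 12.2 ± 1.53% and 7.49 ± 1.32%. The remaining tested cyclases, Adcy5, Adcy6, Adcy7 and Adcy10, had log2 fold changes from -0.39 to 0.11 between caffeine and vehicle, none with an unadjusted p under 0.05.

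Phosphodiesterases also lay on both sides, and those nearest to the threshold were the calcium- and calmodulin-dependent Pde1 enzymes and the cyclic AMP-specific Pde4b. Pde1b (chr15:103503034-103530052) had 91.5, 106 and 97.3 CPM in WT, 87.8, 98.4 and 79.8 CPM in vehicle-treated and 128, 109.7 and 133 CPM in caffeine-treated Tg4-42 mice. All caffeine libraries lay above the 6 others. The log2 fold change against vehicle was 0.48 (SE 0.12, adjusted p = 0.0802 by edgeR's quasi-likelihood test). Its paralogue Pde1a (chr2:79834453-80129458) had 243, 241 and 191 CPM in WT, 185, 161 and 281 CPM in vehicle-treated and 144, 159 and 111 CPM in caffeine-treated mice. The caffeine libraries were the 3 lowest, although 1 of them, at 159 CPM, lay close to the lowest vehicle-treated library, at 161 CPM. For Pde1a the estimate was a log2 fold change of -0.60 (SE 0.19, adjusted p = 0.140 by edgeR's quasi-likelihood test), and it ranged from -0.75 to -0.31 when single libraries were left out, the latter without vehicle replicate 3.

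Pde4b (chr4:102087543-102607259), a target of the inhibitor rolipram, had 89.9, 83.4 and 96.0 CPM in WT, 105, 94.3 and 114 CPM in vehicle-treated and 84.3, 77.2 and 61.4 CPM in caffeine-treated Tg4-42 mice. Vehicle-treated and caffeine-treated Tg4-42 libraries did not overlap, and the WT libraries overlapped both. With caffeine the log2 fold change from vehicle was -0.49 (SE 0.13, adjusted p = 0.0895 by edgeR's quasi-likelihood test), whereas against WT it was -0.27 (SE 0.13), and -0.15 without caffeine replicate 3. Pde5a, a cyclic GMP-specific enzyme described here after its values were seen, had 4.33, 4.81 and 5.30 CPM with vehicle and 5.59, 7.81 and 8.46 CPM with caffeine, and 7.30, 4.11 and 5.56 CPM in WT. The log2 fold change against vehicle was 0.59 (SE 0.26, adjusted p = 0.254 by edgeR's quasi-likelihood test) and the WT libraries overlapped both groups. The summed level of the 22 Pde genes was 156.5 ± 0.795 RPKM in WT, 156 ± 11.5 RPKM with vehicle and 149 ± 4.68 RPKM with caffeine (SD, n = 3). This sum holds cyclic GMP enzymes such as Pde5a, so it does not measure the capacity to degrade cyclic AMP. Of this sum Pde1a made up 23.9 ± 3.17%, 22.0 ± 4.94% and 15.4 ± 2.40%, and Pde1b made up 11.6 ± 0.933%, 10.6 ± 1.81% and 15.4 ± 1.82%, in the same order of groups. The other 16 tested Pde genes had log2 fold changes from -0.60 to 0.32, none with an unadjusted p under 0.05.

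**Figure D3:**
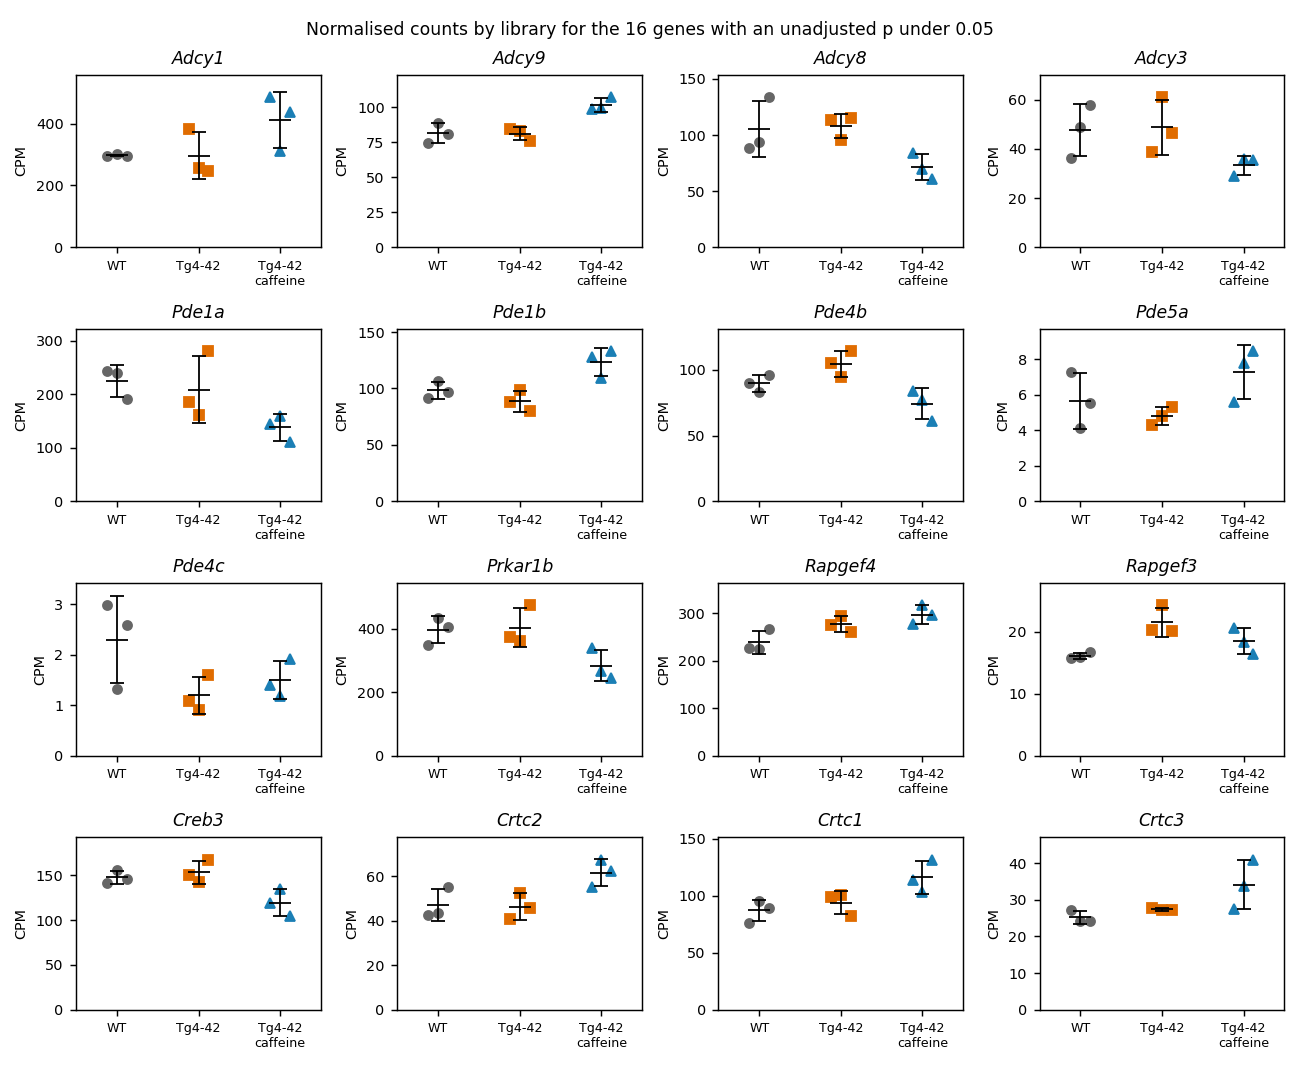
CPM in each library for the 16 members with an unadjusted p under 0.05 in at least 1 of the 3 comparisons, with axes from 0. Symbols are single libraries and the bars give the mean and SD of 3. In the panels of Adcy8, Adcy3, Pde1a, Prkar1b and Creb3 the caffeine libraries lie below the 6 others, and in those of Adcy9, Pde1b and Crtc1 above them.

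Among the kinase A subunits, the neuronal regulatory subunit Prkar1b (chr5:139017306-139150001) lay farthest from its vehicle level. It had 351, 435 and 406 CPM in WT, 375, 363 and 475 CPM in vehicle-treated and 339, 268 and 244 CPM in caffeine-treated Tg4-42 mice, so that all caffeine libraries lay below the 6 others. The log2 fold change against vehicle was -0.51 (SE 0.15, adjusted p = 0.109 by edgeR's quasi-likelihood test). Prkar1a (chr11:109649405-109669656) had 862, 1112 and 934 CPM in WT, 896, 904 and 1010.1 CPM with vehicle and 999, 874 and 747 CPM with caffeine. These groups overlapped, with a log2 fold change of -0.10 (SE 0.14). Prkacb, the higher catalytic subunit, had 321, 308 and 323 CPM in WT, 290.4, 281 and 385 CPM with vehicle and 319, 251 and 238 CPM with caffeine, which also overlapped at a log2 fold change of -0.24 (SE 0.15), and of -0.07 without vehicle replicate 3. Prkaca and Prkar2a did not overlap between caffeine and vehicle either, both with the higher values under caffeine, at log2 fold changes of 0.35 (SE 0.21) and 0.30 (SE 0.14), and Prkar2b overlapped at -0.15 (SE 0.15). Neither of those without overlap had an unadjusted p under 0.05, and the value of Prkaca was 0.16 without vehicle replicate 1.

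Ratios between paralogues use the same library for both genes and so do not depend on its scaling. They were chosen after the values were seen and are given without a test. The ratio of Prkar1a to Prkar1b per exon length was 2.16, 2.25 and 2.03 in WT, 2.11, 2.20 and 1.88 with vehicle and 2.60, 2.87 and 2.70 with caffeine. The ratio of Adcy1 to Adcy8 was 2.17, 2.09 and 1.44 in WT, 2.20, 1.75 and 1.40 with vehicle and 3.78, 2.90 and 4.70 with caffeine. The ratio of Pde1b to Pde1a was 0.419, 0.492 and 0.567 in WT, 0.528, 0.680 and 0.317 with vehicle and 0.992, 0.768 and 1.33 with caffeine. For these 3 ratios all caffeine libraries lay above the 6 others, while WT and vehicle-treated Tg4-42 libraries overlapped. For Pde1b over Pde1a this was fixed by the values above, since Pde1b lay above and Pde1a below the 6 others. Adcy8 and Prkar1b had also been seen below the 6 others, so these ratios restate the single genes and add no separate support. The ratio of Prkacb to Prkaca overlapped in all groups, with means of 2.33 ± 0.730 in WT, 2.75 ± 0.678 with vehicle and 1.79 ± 0.462 with caffeine (SD, n = 3).

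**Figure D4:**
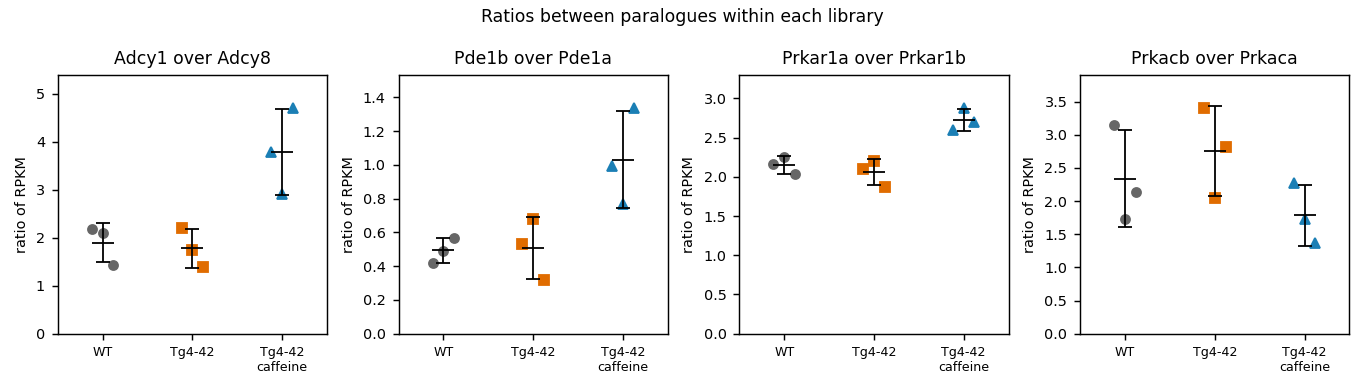
Ratio of the RPKM of a pair of paralogues in each library, with axes from 0. Symbols are single libraries and bars give the mean and SD of 3. The caffeine libraries lie above the 6 others for Adcy1 over Adcy8, Pde1b over Pde1a and Prkar1a over Prkar1b, and overlap them for Prkacb over Prkaca. The pairs were chosen after the values were seen.

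The 3 CRTC coactivators all had positive log2 fold changes between caffeine and vehicle, and the 4 CREB family genes all had negative ones. The value of Creb1, -0.08 (SE 0.13), changed sign when a single library was left out. Crtc1, which carries calcium and cyclic AMP signals from synapse to nucleus, had 76.5, 95.0 and 89.6 CPM in WT, 98.6, 100.5 and 82.1 CPM with vehicle and 113, 103 and 132 CPM with caffeine. The caffeine libraries were the 3 highest of the 9, with a log2 fold change of 0.31 against vehicle (SE 0.13, adjusted p = 0.254 by edgeR's quasi-likelihood test). Crtc2, the coactivator known from gluconeogenesis in the liver, had 42.4, 43.6 and 55.4 CPM in WT, 40.6, 52.6 and 45.9 CPM with vehicle and 55.1, 67.6 and 62.3 CPM with caffeine. The 3 caffeine libraries lay above all vehicle libraries, and 1 WT library lay just above the lowest of them. Crtc2 had a log2 fold change of 0.41 (SE 0.14, adjusted p = 0.163 by edgeR's quasi-likelihood test). Crtc3, the third coactivator, had 27.1, 24.3 and 24.2 CPM in WT, 27.7, 27.1 and 27.2 CPM with vehicle and 27.5, 33.9 and 41.0 CPM with caffeine, where 1 caffeine library lay within the vehicle range. For Crtc3 it was 0.32 (SE 0.15, adjusted p = 0.304 by edgeR's quasi-likelihood test), and 0.17 without caffeine replicate 3. The summed level of the CRTC genes was 21.9 ± 2.03 RPKM in WT, 22.5 ± 1.82 RPKM with vehicle and 28.9 ± 2.40 RPKM with caffeine (SD, n = 3).

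Creb3 had 141, 156 and 146 CPM in WT, 150.1, 143 and 168 CPM with vehicle and 119, 135 and 105 CPM with caffeine. All caffeine libraries lay below the 6 others, at a log2 fold change of -0.36 against vehicle (SE 0.12, adjusted p = 0.155 by edgeR's quasi-likelihood test), with the exon overlap with Gba2 and Tln1 named above. Creb1, Crem and Creb5 overlapped between the groups, with log2 fold changes of -0.08 (SE 0.13), -0.17 (SE 0.20) and -0.60 (SE 0.41). Leaving out single libraries gave -0.22 to 0.0040 for Creb1, so its direction was not kept. For Crem the range was -0.44 to -0.03, with the ends without caffeine replicates 1 and 3. For Creb5 it was -0.98 to -0.22, with the ends without vehicle replicates 2 and 3.

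Against WT, the caffeine-treated Tg4-42 mice gave a similar number of members, with 0 of 44 past the adjusted threshold by edgeR's quasi-likelihood test, beside 0.415% of all genes, and 12 at an unadjusted p under 0.05, beside 15.4% of all genes. DESeq2 called 2 members, Pde1a and Adcy8, and limma-voom called 0. This comparison shares the caffeine libraries with the previous one and the WT libraries with the first. Of the 12, 7 were higher (Adcy1, Adcy9, Pde1b, Rapgef4, Crtc1, Crtc2, Crtc3) and 5 lower (Adcy3, Adcy8, Pde1a, Prkar1b, Creb3) in caffeine-treated mice, beside 6.78% and 8.65% of all genes in these directions. The groups did not overlap for 11 members, 25.0%, beside 18.8% of all genes, with 6 higher and 5 lower, beside 9.14% and 9.67%. The lowest adjusted p was 0.109, for Pde1a, at a log2 fold change of -0.70 (SE 0.19) by edgeR's quasi-likelihood test. Rapgef4 lay above all WT libraries at a log2 fold change of 0.32 (SE 0.12), and the values against WT were 0.47 (SE 0.18) for Adcy1, 0.32 (SE 0.11) for Adcy9, 0.33 (SE 0.12) for Pde1b and -0.56 (SE 0.16) for Adcy8, the last being -0.35 without WT replicate 3. For the CRTC genes they were 0.41 (SE 0.13) for Crtc1, 0.39 (SE 0.14) for Crtc2 and 0.44 (SE 0.15) for Crtc3, the last being 0.29 without caffeine replicate 3. The median of the members was 0.03, beside -0.01 over all genes.

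The sequencing lane did not separate the groups, since replicates 1 and 2 of each group ran on lane 6 and replicate 3 on lane 7. Between caffeine and vehicle, the size of the differences within lanes varied. For Pde1a the log2 ratio of means was -0.19 on lane 6 and -1.34 on lane 7, for Prkar1b -0.28 and -0.96, for Adcy8 -0.45 and -0.93, for Pde4b -0.31 and -0.89, and for Pde1b 0.35 and 0.74. Lane 7 holds 1 library per group, so no spread is known there.

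Marker genes of hippocampal cell types also differed in level with the caffeine group, on lists partly made with results of these data known. The summed level of 14 dentate granule cell genes was 1117 to 1422 CPM in WT, 918 to 1523 CPM with vehicle and 1723 to 2075 CPM with caffeine, and all 14 had a positive log2 fold change between caffeine and vehicle, with a median of 0.67. For 3 of them (Plk5, Stxbp6 and Bcl11b) the adjusted p was under 0.05 by edgeR's quasi-likelihood test. Over all genes, 0.881% were called in this comparison. The summed level of 12 interneuron genes was 1521 to 1643 CPM in WT, 1485 to 2175 CPM with vehicle and 1135 to 1403 CPM with caffeine, with 11 of 12 log2 fold changes negative, a median of -0.49 and 1 gene (Slc32a1) called. The 8 CA1 pyramidal cell genes summed to 891 to 1273 CPM in WT, 904 to 1103 CPM with vehicle and 599.5 to 883 CPM with caffeine, with 7 of 8 negative, and the 10 genes of CA2 and CA3 overlapped between the groups, at 510 to 593, 549.9 to 718 and 501 to 668 CPM, with 8 positive and 1 (Spock1) called lower. The glial lists had mostly negative log2 fold changes and no gene called, with 6 of 7 astrocyte, 7 of 7 oligodendrocyte and 7 of 7 microglia genes negative, at medians of -0.78, -0.64 and -0.51. The medians of 5 tested genes each were -0.69 for striatal projection neurons, -0.23 for pan-neuronal genes and -1.21 for choroid plexus, and no marker of any list was at 0 in all libraries. Between vehicle-treated Tg4-42 and WT mice, 7 of 8 CA1 genes were negative (median -0.13) and 12 of 12 interneuron genes positive (median 0.25). The dentate list had 6 positive and 8 negative there, and the CA2 and CA3 list 6 positive and 4 negative. No gene of these lists was called in that comparison by edgeR's quasi-likelihood test. The part of cell composition in the values of the members was not tested.

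**Figure D5:**
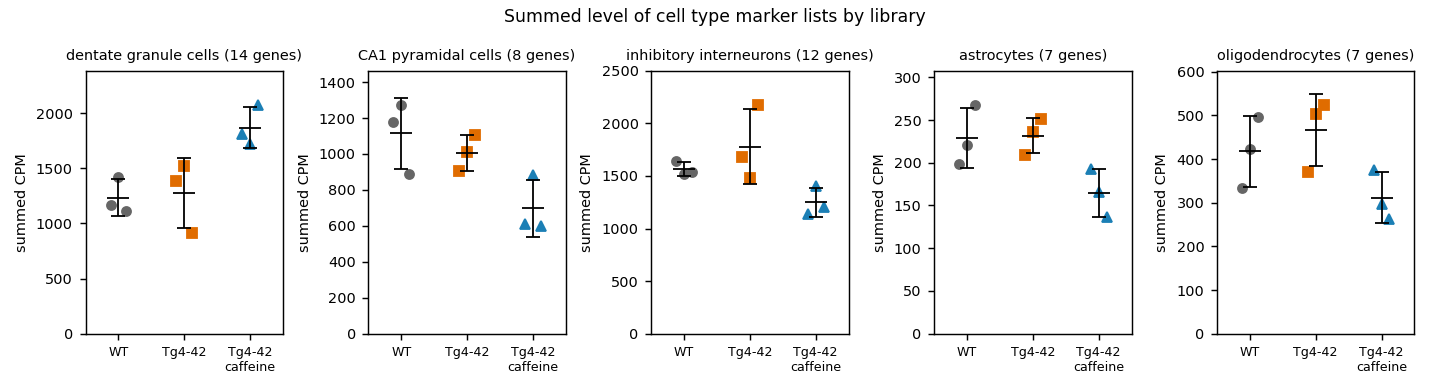
Summed CPM of 5 lists of cell type marker genes in each library, with axes from 0. Symbols are single libraries and bars give the mean and SD of 3. The dentate granule cell list lies highest in the caffeine libraries, and the lists of CA1 pyramidal cells, interneurons and astrocytes lie lowest there. The oligodendrocyte list overlaps between the groups.

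Some members varied more within a group than most. The biological coefficient of variation, edgeR's estimate of the relative spread between libraries of a group, had a median of 0.149 over the 44 members and 0.162 over all genes tested, and it passed 0.3 for Pde3a, Pde4d, Pde11a and Creb5, and these 4 are named because of their values. Pde4d, a cyclic AMP-specific phosphodiesterase with many start sites, had 82.5, 45.9 and 136 CPM in WT, 136, 77.8 and 118 CPM with vehicle and 105, 58.6 and 56.2 CPM with caffeine. Its log2 fold change from vehicle to caffeine was -0.60, as large as that of Adcy8, but with an SE of 0.43. Pde11a, a phosphodiesterase that hydrolyses both cyclic nucleotides and is known from the ventral hippocampus, had 19.2, 15.7 and 8.28 CPM in WT, 13.0, 19.8 and 13.3 CPM with vehicle and 7.28, 23.4 and 17.6 CPM with caffeine. Its lowest and highest values over all 9 libraries were both in the caffeine group. The lowest coefficient, 0.107, was that of Adcy9.

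Other genes of the pathway, from lists of 80 genes of which 74 were tested, were described for context. Between caffeine and vehicle 1 of them was called by edgeR's quasi-likelihood test, beside 0.881% of all genes. This was Ppp1r1a, which encodes the kinase A-activated inhibitor 1 of protein phosphatase 1. It had 54.6, 89.9 and 59.0 CPM in WT, 47.7, 47.2 and 44.3 CPM with vehicle and 101.3, 101.5 and 123 CPM with caffeine. The caffeine libraries lay above all others, and Ppp1r1a rose by a log2 fold change of 1.23 (SE 0.17, adjusted p = 0.0120 by edgeR's quasi-likelihood test). The adjusted p was 0.114 without caffeine replicate 3, 0.0501 without vehicle replicate 1 and 0.0751 without vehicle replicate 3. At an unadjusted p under 0.05 there were 15 of the 74, 20.3%, beside 17.0% of all genes, with 6 higher and 9 lower. The next smallest p belonged to Prkg2, a cyclic GMP-dependent kinase with 6.71, 6.80 and 12.2 CPM with vehicle and 4.63, 3.94 and 4.69 CPM with caffeine (adjusted p = 0.0977), and to Ppp3ca, the calcineurin subunit whose phosphatase acts on CRTC proteins, with 1167, 1309.7 and 935 CPM with vehicle and 1775, 1507 and 1688 CPM with caffeine (adjusted p = 0.101, both by edgeR's quasi-likelihood test).

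By role, the median over the 16 CREB target genes was -0.26 on the log2 scale for caffeine against vehicle, with 11 negative. Of the 16, 4 were lower at an unadjusted p under 0.05 and 0 higher, beside 9.82% and 7.15% of all genes. The 7 G protein genes that act on cyclases had a median of 0.07 and the 13 kinase A inhibitors and anchoring proteins one of 0.11, with 0 at an unadjusted p under 0.05 in either list. Medians were 0.12 for the 9 tested genes of other cyclic AMP sensors and Rap proteins, 0.12 for 10 CREB partners and CRTC kinases, -0.12 for 8 tested genes of the cyclic GMP branch and 0.06 for 10 kinase A substrates and phosphatases. Of 4 adenosine receptors only Adora1 passed the filter on low counts, with a log2 fold change of -0.20. In the comparison of vehicle-treated Tg4-42 with WT mice, 0 of the 74 genes were called by edgeR's quasi-likelihood test and 3 had an unadjusted p under 0.05 (Ppp1r1a, Junb and Nr4a3), all lower in Tg4-42, beside 2.74% of all genes. In caffeine-treated Tg4-42 against WT mice 0 were called and 8 had an unadjusted p under 0.05, beside 15.4% of all genes.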

How the data were processed

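Nuclear RNA of 9 libraries was measured by SMART-Seq v4 and Nextera XT, a kit that does not mark strand, and single-end sequencing. The authors aligned reads to mm10 with STAR and deposited exon counts per gene made with featureCounts, with strand setting and annotation not given in the sources used here. Deposited counts were used as they stand: none was normalized, and all 9 files listed 48709 genes, of which 48349 had a GENCODE M21 symbol.

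Genes were filtered on low counts (minimum 10 in enough libraries and 15 in total) and fitted over all 9 libraries and 3 groups with edgeR's quasi-likelihood test on TMM-scaled counts (edgeR 4.0.16, limma 3.58.1, DESeq2 1.42.0, R 4.3.3), with Benjamini-Hochberg adjustment over all 17361 genes at 0.05. The scripts were tested on simulated data. RPKM used the union of exons as length. For single genes an exact two-sided permutation test on log2(CPM + 0.5) was computed, which cannot go below 0.1 with 3 against 3 libraries. The labels do not say in words that each library is 1 animal, so p-values measure the spread between these libraries, which may be technical in part.

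Replicate libraries were not duplicates, with correlations of log CPM from 0.978 to 0.985 within groups. Replicate numbers were given in accession order and name libraries, so no pairing was assumed. Deviations of same-numbered libraries correlated at 0.19, 0.14 and 0.16 between Tg4-42 and WT, at 0.15, 0.18 and -0.17 between caffeine and vehicle, and at -0.17, 0.0075 and -0.11 between caffeine and WT. The members were chosen by symbol, and members and lists were chosen with earlier results of these data known. Named members are those called (0), up to 15 with the smallest p among those with an unadjusted p under 0.05 in any comparison, and the highest per length in each subfamily. Other pathway genes are named if called or among the 3 smallest p of a comparison. Alternatives were DESeq2, limma-voom, no filter, a mean count filter of 50, only the groups compared, lane or replicate number as a term, corrections for length and GC content (splines of 5 degrees of freedom), and leaving out each library.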

Additional observations from a re-analysis of the deposited data

How the results depend on the processing

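Of 510 alternative fits of 32 results on single members, 509 kept the direction and 26 passed the threshold. The exception was Prkar1a between caffeine and vehicle. Its log2 fold change of -0.10 was 0.00015 without Tg4-42 caffeine replicate 3 and went down to -0.21 with other libraries left out. The 32 are not the results of all members, and results with a small p keep their direction more readily. Outside the 32, directions did change between caffeine and vehicle, as for Creb1 (-0.22 to 0.0040) and Adcy6 (-0.10 to 0.28) with single libraries left out. The share of 509 in 510 therefore does not describe all members. Between caffeine and vehicle, 0 members were called in the main analysis, 4 by DESeq2 and 4 by limma-voom (Pde1b, Pde4b, Adcy8, Prkar1b), 8 without a filter on low counts, 1 (Adcy8) with only the groups compared, 1 (Pde1b) with a GC correction, and 0 to 2 when single libraries were left out, the 2 being Prkar1b and Adcy8 without caffeine replicate 1. Members with an unadjusted p under 0.05 then numbered 8 to 15. Their median of -0.07 was -0.011 with a length correction, -0.019 with a GC correction and -0.11 to 0.0012 when libraries were left out. The number of genes called went from 153 to 747 with DESeq2, 987 without a filter, 9 with lane as a term, 587 with limma-voom, 68 with a length and 248 with a GC correction, and 0 to 341 with libraries left out, with 0 without replicate 3 of either group, 3 without vehicle replicate 1, 58 without caffeine replicate 2 and 341 without caffeine replicate 1. Of the genes called, 24.2% were higher, against 37.3% with DESeq2, 36.2% without a filter, 44.8% with a GC and 39.7% with a length correction.

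Against WT, caffeine gave 2 called members with DESeq2, 5 without a filter and 0 with libraries left out, where 7 to 13 had an unadjusted p under 0.05 and the median was -0.023 to 0.054. Genes called went from 72 to 553 with DESeq2, 860 without a filter, 42 with lane as a term, 125 with limma-voom, 115 with a GC correction and 16 to 287 with libraries left out, and the percentage that were higher from 34.7% to 47.6% with lane as a term. Between Tg4-42 and WT, 17 genes were called, 74 without a filter and 14 to 18 with libraries left out. Members with an unadjusted p under 0.05 numbered 1 with a mean filter of 50, 1 with limma-voom and 1 to 3 with libraries left out, with a median from -0.016 to 0.066. With the replicate number as a block, 16, 187 and 82 genes were called in the 3 comparisons, against 17, 153 and 72 without it. With and without the block, 0 members were called in each comparison and Ppp1r1a was called between caffeine and vehicle. Causes of these changes were not tested. At the lowest levels, such as those of Pde3a, Pde4c and Creb5, standard errors were 0.57, 0.41 and 0.41 between caffeine and vehicle, beside 0.12 for Pde1b. The size of difference that could be detected there was not computed.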
